A study of Mus musculus with 2 samples.

Results

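Apolipoprotein messages were examined in the newborn mouse adrenal gland through 10 genes chosen by name, of 55536 annotated genes: Apoe, Apoc1 and Apod, which many tissues make, and Apoa1, Apoa2, Apoa4, Apob, Apoc2, Apoc3 and Apom, which are known chiefly from liver or intestine. Total RNA was sequenced from adrenal glands of B6CASTF1/J males aged 4 days, the first-generation cross of C57BL/6J with the wild-derived CAST/EiJ. There was 1 group, untreated as far as the labels say, with 2 biological replicates, each library made from 300 ng of RNA. The sample characteristics number the males differently, but both samples share 1 donor label and 1 description that repeats one of these numbers, so the spread between the libraries may be partly technical. With 1 group, the comparisons were between members within a library and between the libraries, and no p-value was computed.

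Apolipoproteins are the protein part of lipoproteins, the particles that carry cholesterol and triglycerides in blood. Liver and intestine secrete most of them, while Apoe is also made in macrophages, glia and steroid-producing cells. The adrenal cortex uses cholesterol to make steroids and, in mice, takes much of it from high-density lipoprotein (HDL) through the receptor Scarb1.

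Counts assigned to annotated genes came to 30292851 for replicate 2 and 32231301 for replicate 1. Markers of the gland were high in both: the 6 cortex genes summed to 5002 TPM (a level that corrects for transcript length and library size) in replicate 2 and 6371 TPM in replicate 1, and the 4 medulla genes to 1385 and 1544 TPM. The libraries stood apart in liver genes. All 12 genes of the liver list were over 2-fold higher in replicate 2. They summed to 4512 TPM there, against 150.1 TPM in replicate 1, and their median log2 ratio was 4.87. Albumin, the main liver plasma protein, had 2319 TPM in replicate 2, against 76.3 TPM in replicate 1. In bulk tissue, fewer cells of a type and less RNA per cell cannot be told apart.

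Apoe, the ligand through which remnant particles bind receptors of the LDL receptor family, had the highest mean level of the 10 genes. Its level was 710 TPM in replicate 2, against 226 TPM in replicate 1, a mean of 468 ± 342 TPM (SD, n = 2). It was the highest member in each library of the gene tables, ranking 36 and 179 among protein-coding genes in replicates 2 and 1. In the alignment-free tables, a second quantification of the same reads, Apoa1 was above it in replicate 2 (1344 against 1186 TPM) and Apoc1 in replicate 1 (493 against 401 TPM). Its counts as deposited were 21735 in replicate 2 and 7704 in replicate 1. After division by the TMM library sizes Apoe was 2.94-fold higher in replicate 2. Its log2 ratio was 1.56, with a 95% interval of 1.52 to 1.59 that covers counting error only.

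Apoc1, a small exchangeable apolipoprotein encoded beside Apoe, differed least among the abundant members. It had 253 TPM in replicate 2, against 177 TPM in replicate 1, a log2 ratio of 0.42 (0.33 to 0.50). Apoe therefore exceeded Apoc1 2.80-fold in replicate 2 and 1.28-fold in replicate 1 in TPM. In the alignment-free tables these ratios were 1.82 and 0.814. Apod, a lipocalin that binds small lipids and is known from glia, was near the limit of detection, with 0.76 TPM in replicate 2, against 0.55 TPM in replicate 1. Its 21 and 18 counts gave an interval of the log2 ratio from -0.70 to 1.27, so no difference was detectable at this depth.

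**Figure D1:**
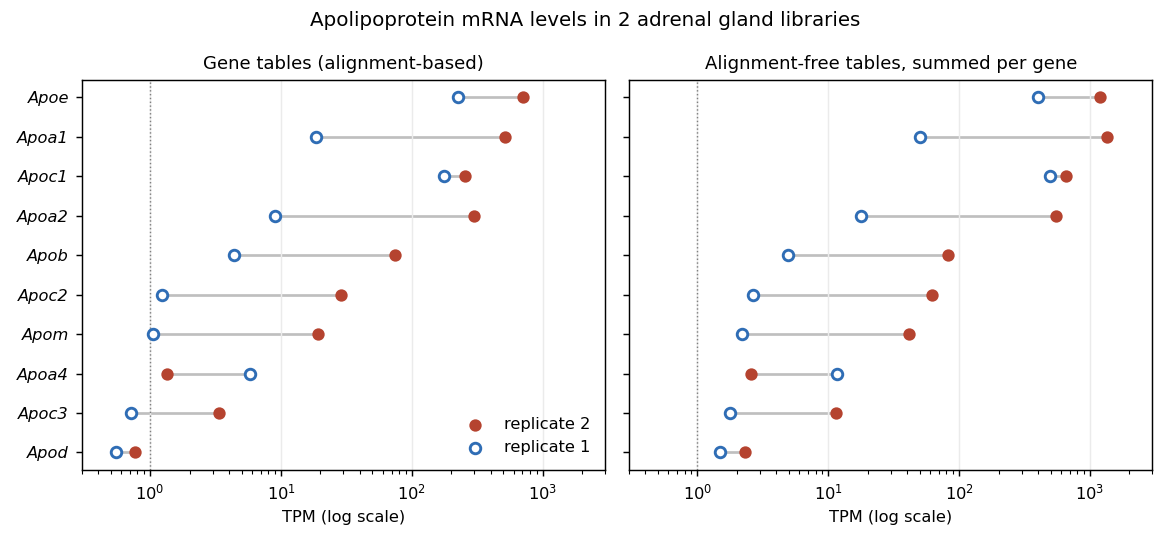
Level of each of the 10 genes in TPM (log axis), with replicate 2 and replicate 1 as separate points. Apoe and Apoc1 are at 177 TPM or more in both libraries, whereas Apoa1 and Apoa2 are at 517 and 300 TPM in replicate 2 and at 18.5 and 9.07 TPM in replicate 1.

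Apoa1 and Apoa2, the main proteins of HDL, were far more abundant in replicate 2. Apoa1, which activates the cholesterol-esterifying enzyme Lcat, had 517 TPM in replicate 2, against 18.5 TPM in replicate 1. Apoa2 had 300 TPM in replicate 2, against 9.07 TPM in replicate 1. Apoa1 was 26.1-fold and Apoa2 31.3-fold higher in replicate 2, with log2 ratios of 4.71 (4.59 to 4.83) and 4.97 (4.71 to 5.25). Of 18160 genes kept by a filter on low counts, 22 had a higher ratio than Apoa2.

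Apob, the structural protein of chylomicrons and of very-low- and low-density lipoprotein, had 73.8 TPM in replicate 2, against 4.4 TPM in replicate 1. Its counts, 17798 in replicate 2 and 1151 in replicate 1, were high for its level because its message is long, and they gave a log2 ratio of 4.01 (3.92 to 4.10). Apom, a lipocalin that carries sphingosine-1-phosphate on HDL, had 19.3 TPM in replicate 2, against 1.06 TPM in replicate 1, a log2 ratio of 4.08 (3.58 to 4.66). Both were thus over 8-fold higher in replicate 2.

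Among the regulators of lipoprotein lipase, the activator Apoc2 had 29.0 TPM in replicate 2, against 1.23 TPM in replicate 1, a log2 ratio of 4.41 (3.80 to 5.17). Its counts, 418 and 20.5, are uncertain, because the gene Gm44805 overlaps it on the same strand and can share its reads. The inhibitor Apoc3 had 3.37 TPM in replicate 2, against 0.71 TPM in replicate 1. It rested on 43 and 10 counts and did not pass the filter on low counts, and its log2 ratio of 2.11 had a wide interval, 1.15 to 3.32. Apoc3, an abundant liver message in adult mice, was thus scarce in both libraries, at 0.145% of the albumin TPM in replicate 2 and 0.931% in replicate 1. In the alignment-free tables its level was higher, at 11.4 TPM in replicate 2 and 1.77 TPM in replicate 1. There it was at 0.308% and 1.33% of albumin.

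Apoa4, a lipoprotein component made mainly in intestine, ran the other way. It had 1.35 TPM in replicate 2, against 5.81 TPM in replicate 1, on 69 and 330 counts. It was 4.57-fold lower in replicate 2, with a log2 ratio of -2.19 (-2.59 to -1.82), and 10 of the 18160 kept genes had a lower one. The alignment-free ratio was -2.21. Gm10680 and Gm47528, which overlap Apoa4 on the opposite strand, were at 0 counts in both libraries of the gene tables.

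Of the 10 members, 7 were over 2-fold higher in replicate 2, against 3.60% of all kept genes. These 7 were Apoe and every liver-type gene except Apoa4. Apoc3, one of them, did not pass the filter on low counts in either kind of table. Without the filter, the share of all genes over 2-fold higher was 7.89%. Apoa4 was the 1 member over 2-fold lower, against 0.710% of kept genes, and Apoc1 and Apod were within 2-fold. Over 8-fold higher were 5 members, all liver-type (Apoa1, Apoa2, Apob, Apoc2 and Apom), against 0.980% of kept genes. The alignment-free tables gave the same 7 and 1, where 3.62% of 19525 genes were over 2-fold higher and 0.604% over 2-fold lower. The 7 liver-type genes had a median log2 ratio of 4.08, and all kept genes 0.00. The 5 members over 8-fold higher lay within the range of the liver list, 3.26 to 5.05. The lower end of this range was set by the scarce gene Tdo2 alone. Apob and Apom lay below every other liver gene, though their intervals overlapped that of the next lowest, Cps1. Apoe at 1.56 and Apoc3 at 2.11 lay below the whole liver list. The interval of Apoc3 reached 3.32, which is above the ratio of Tdo2 only. The part of liver RNA in these differences was not tested.

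**Figure D2:**
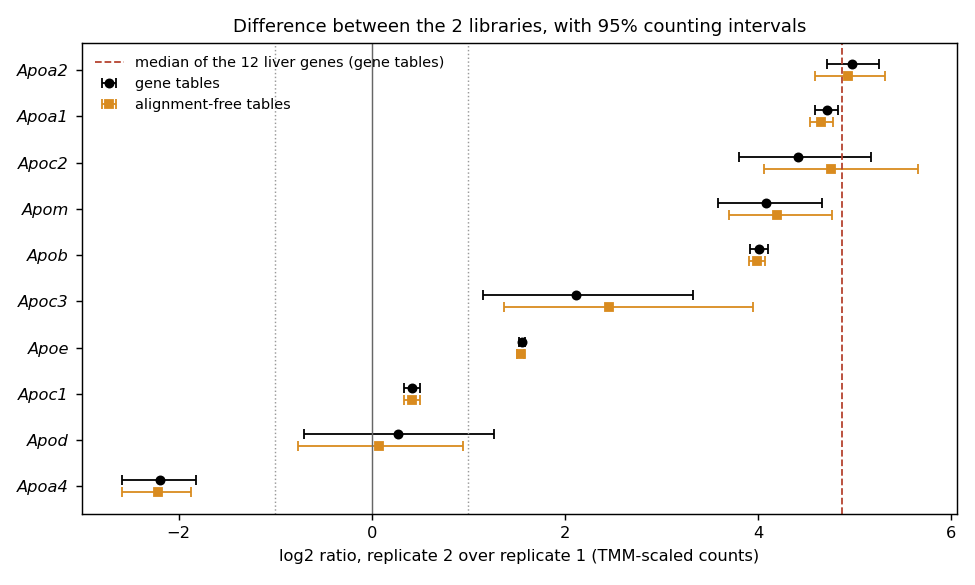
Log2 ratio of replicate 2 over replicate 1 for each of the 10 genes, with 95% counting intervals, from the gene tables and the alignment-free tables. The dashed line marks the liver list's median of 4.87, and Apoa1, Apoa2, Apob, Apoc2 and Apom lie between 4.01 and 4.97, Apoe at 1.56 and Apoa4 at -2.19.

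Ratio and amount ranked the genes differently. In the gene tables Apoe differed between the libraries by 483 TPM, although its fold was far smaller than that of Apoa1 or Apoa2. This was nearly as much as Apoa1 by 498 TPM and more than Apoa2 by 291 TPM. In the alignment-free tables Apoe differed by 785 TPM, well below Apoa1 at 1293 TPM and above Apoa2 at 528 TPM. Set against albumin in the same library, Apoa1 was at 22.3% of the albumin TPM in replicate 2 and 24.3% in replicate 1. Apoa2 was at 12.9% and 11.9%, so these genes kept a like proportion to albumin in libraries that differed 28.5-fold in albumin counts.

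Apoc2 was at 1.25% in replicate 2 and 1.61% in replicate 1, and the interval of its log2 ratio contained the 4.84 of albumin. The proportion to albumin differed more for the other 7 members. Apoe was at 30.6% of the albumin TPM in replicate 2 and 297% in replicate 1, and Apoc1 at 10.9% and 232%. Apob was at 3.18% and 5.77%. Apoa4 differed most among the liver-type genes, at 0.0582% in replicate 2 and 7.62% in replicate 1. Apoa1 exceeded Apoa2 1.72-fold in replicate 2 and 2.04-fold in replicate 1, but it exceeded Apoa4 383-fold in replicate 2 and 3.19-fold in replicate 1.

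The make-up of the apolipoprotein messages differed accordingly. Apoe, Apoc1 and Apod summed to 964 TPM in replicate 2, against 404 TPM in replicate 1, which was 50.5% and 90.8% of the 10 genes' total. The 7 liver-type genes summed to 944 TPM in replicate 2, against 40.8 TPM in replicate 1, or 49.5% and 9.18%. Apoe alone took 37.2% in replicate 2 and 50.9% in replicate 1. These shares are from the gene tables. In the alignment-free tables the liver-type genes were the larger class in replicate 2, at 2090 TPM against 1840.1 TPM for Apoe, Apoc1 and Apod. In replicate 1 they were at 91.7 against 896 TPM. Apoe took 30.2% in replicate 2 and 40.6% in replicate 1 there, below Apoa1 (34.2%) and Apoc1 (49.9%) respectively. Together the 10 genes held 0.201% of gene counts in replicate 2 (Wilson 95% interval 0.200 to 0.203) and 0.0370% in replicate 1 (0.0363 to 0.0377).

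**Figure D3:**
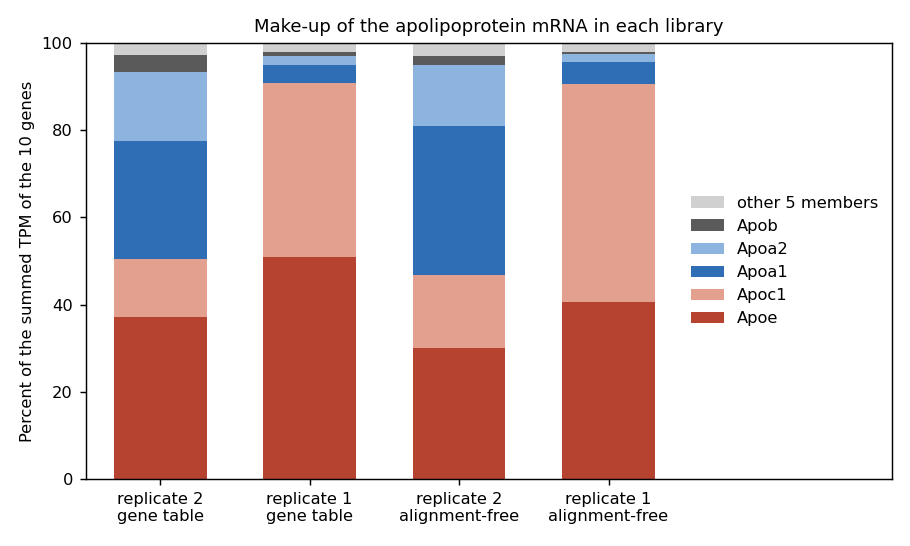
Percent of the 10 genes' summed TPM taken by each gene in replicate 2 and replicate 1. In the gene tables Apoa1 takes 27.1% in replicate 2 and 4.17% in replicate 1, and Apoc1 takes 13.3% and 39.8%.

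By mean level the order was Apoe, Apoa1, Apoc1, Apoa2, Apob, Apoc2, Apom, Apoa4, Apoc3 and Apod. No neighbouring pair in this order had ranges over the libraries that stood apart. Mean levels were 268 ± 352 TPM for Apoa1, 215 ± 53.9 TPM for Apoc1 and 155 ± 206 TPM for Apoa2 (SD, n = 2). A mean of 1 TPM or more was reached by 9 members, all but Apod, and 8 reached it in both libraries.

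Genes that lie side by side had unlike ratios. On chromosome 9, Apoa1, Apoc3, Apoa4 and Apoa5 lie within 43340 bases (mm10, chr9:46228580-46271919). Their log2 ratios were 4.71, 2.11, -2.19 and 4.96, so Apoa4 was lower in replicate 2 between neighbours that were higher. On chromosome 7, Apoc2, Apoc4, Apoc1 and Apoe lie on the minus strand within 27610 bases (chr7:19671579-19699188). Their log2 ratios were 4.41, 1.14, 0.42 and 1.56, and Apoc1 and Apoe, only 3448 bases apart, differed from each other beyond their counting intervals.

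The promoter sequences of members that ran in opposite directions or at different ratios are shown for comparison, taken from RefSeq on GRCm38.p6 (mm10) and ending just before the first annotated base of the gene. The promoter table held 8 of the 10 members. Capitals mark matches, on either strand, to TATAAA (the TATA box), AAGGTCA (a nuclear receptor site that Nr5a1 can bind), CAAAGTCCA (a site of the Hnf4a type), GTTAAT and CCAAT (the CCAAT box). Apoa1 (chr9:46228380-46228579, plus strand) and Apoa4 (chr9:46240594-46240695, plus strand) are of the chromosome 9 cluster, Apoa2 (chr1:171224804-171225053, plus strand) and Apob (chr12:7977427-7977647, plus strand) are liver-type genes elsewhere, and Apoe (chr7:19699189-19699438) is on the minus strand.
Apoa1: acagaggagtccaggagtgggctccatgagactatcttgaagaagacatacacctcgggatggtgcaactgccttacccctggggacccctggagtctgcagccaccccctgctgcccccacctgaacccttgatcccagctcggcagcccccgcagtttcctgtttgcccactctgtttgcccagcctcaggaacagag
Apoa2: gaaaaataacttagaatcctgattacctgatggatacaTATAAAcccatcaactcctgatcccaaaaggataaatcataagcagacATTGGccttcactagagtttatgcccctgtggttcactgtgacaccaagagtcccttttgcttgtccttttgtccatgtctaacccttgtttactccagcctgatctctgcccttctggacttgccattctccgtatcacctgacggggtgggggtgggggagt
Apob: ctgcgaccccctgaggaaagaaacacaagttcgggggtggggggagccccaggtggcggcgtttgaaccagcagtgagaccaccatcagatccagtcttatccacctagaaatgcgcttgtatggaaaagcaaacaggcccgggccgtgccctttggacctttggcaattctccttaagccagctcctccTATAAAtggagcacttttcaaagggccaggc
Apoa4: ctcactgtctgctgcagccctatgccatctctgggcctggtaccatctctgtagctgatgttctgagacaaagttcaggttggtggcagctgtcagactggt
Apoe: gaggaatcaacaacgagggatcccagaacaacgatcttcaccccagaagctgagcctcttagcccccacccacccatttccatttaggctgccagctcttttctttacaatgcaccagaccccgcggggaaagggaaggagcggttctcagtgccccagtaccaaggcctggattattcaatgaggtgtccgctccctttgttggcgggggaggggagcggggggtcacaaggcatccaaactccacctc

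Apoa2 held TATAAA and a CCAAT match on the opposite strand, Apob held TATAAA, and the Apoa1, Apoa4 and Apoe stretches held none of the 5 motifs. The stretches differ in length, at 102 bases for Apoa4, 200 for Apoa1, 221 for Apob and 250 for Apoa2 and Apoe, so a shorter one had fewer places for a match. Apoe has RefSeq starts further into the gene as well, and of their windows, not printed here, the one at base 19698621 held TATAAA and the one at 19698398 held GTTAAT. Among 32851 promoter windows of 300 bases, 13.6% held TATAAA, 4.72% AAGGTCA, 0.475% CAAAGTCCA, 7.10% GTTAAT and 37.4% CCAAT. Of the 11 windows of the 8 members, 3, 1, 0, 2 and 2 held these motifs in that order. A match describes the letters only.

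Other apolipoprotein genes were mostly higher in replicate 2 as well, at unlike ratios. Of 7, 6 were over 2-fold higher and none lower, against 3.60% and 0.710% of kept genes. The median log2 ratio was 3.31. Apon and Saa4, among the 6, did not pass the filter on low counts. Without the filter, 7.89% of all genes were over 2-fold higher. Apoh, beta-2-glycoprotein, had 112 TPM in replicate 2, against 3.16 TPM in replicate 1, and Apoa5, an activator of triglyceride clearance, had 12.2 and 0.50 TPM, with log2 ratios of 5.05 and 4.96. Apof had 27.1 TPM in replicate 2, against 5.39 TPM in replicate 1 (2.23), Apon 1.67 and 0.16 TPM (3.31), and Apoc4 77.2 and 32.5 TPM (1.14). Saa4 had 37 counts in replicate 2 and 0 in replicate 1 of the gene tables, and a log2 ratio of 3.20 in the alignment-free tables. Clu, a secreted chaperone made in many tissues, was the exception, with 66.8 TPM in replicate 2, against 58.6 TPM in replicate 1 (0.12).

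Receptors differed little. Of 9 lipoprotein receptor genes none was over 2-fold higher in replicate 2 and the median log2 ratio was 0.06. Scarb1, the HDL receptor, was the highest, with 232 TPM in replicate 2, against 225 TPM in replicate 1. It was followed by Lrp1, a receptor for Apoe-bearing remnants, with 107 and 81.2 TPM, and by the sorting receptor Sort1 with 11.5 and 10.6 TPM. Lrp2, an endocytic receptor that is also on the kidney list, was over 2-fold lower, with 0.72 TPM in replicate 2, against 1.56 TPM in replicate 1 (log2 ratio -1.50).

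Among 13 genes of lipid transfer and remodelling, 5 were over 2-fold higher in replicate 2 and none lower, with a median log2 ratio of 0.28. Among them were the hepatic lipase Lipc (9.78 TPM in replicate 2 and 0.30 in replicate 1, log2 ratio 5.14), the lipase inhibitor Angptl8 (2.58 and 0.51 TPM, 2.20) and Lcat (11.9 and 0.70 TPM, 3.96). The 3 highest genes were within 2-fold: lipoprotein lipase Lpl had 67.99 TPM in replicate 2, against 60.3 TPM in replicate 1, the cholesterol exporter Abca1 45.1 and 51.3 TPM, and the lipase anchor Gpihbp1 27.5 and 24.0 TPM.

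Of 10 transcription factors known to act on apolipoprotein or sterol genes, 2 were over 2-fold higher in replicate 2, Hnf4a among them, and none lower, with a median log2 ratio of 0.10. Hnf4a, a nuclear receptor of liver, intestine and kidney, had 5.21 TPM in replicate 2, against 1.01 TPM in replicate 1. The 3 highest were Nr5a1, the steroidogenic factor of the cortex, at 155 TPM in replicate 2, against 161 TPM in replicate 1, Srebf1 at 56.7 and 40.4 TPM, and Nr1h2 at 45.2 and 39.8 TPM.

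Markers of other cell types were set beside these values. Macrophages and glia make Apoe besides liver, and their markers differed less than the liver list, whose median log2 ratio was 4.87. The part of any of these cells in the Apoe difference was not tested. The 8 macrophage genes summed to 119 TPM in replicate 2, against 104 TPM in replicate 1 (median log2 ratio 0.03, none past 2-fold), with Lyz2, C1qb and C1qa highest. The 5 glial genes summed to 33.0 and 18.4 TPM (0.42), with 1 gene over 2-fold higher. The cortex and medulla medians were -0.24 and -0.27, with no gene past 2-fold, so Apoe differed between libraries more than any gene of the cortex list.

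The stroma list had a median log2 ratio of 0.44 and the adipocyte list 0.21, with none of their 6 and 4 genes past 2-fold. Beside Apoa4, the intestine list of 5 genes summed to 3.06 TPM in replicate 2, against 2.11 TPM in replicate 1. Its median log2 ratio was nevertheless -0.76, because Fabp2, at 2.17 and 0.66 TPM, made up most of the replicate 2 sum. Fabp2 was over 2-fold higher in replicate 2, while Alpi (1 and 33 counts) and Slc5a1 (7 and 16 counts) were over 2-fold lower. Neither Alpi nor Slc5a1 passed the filter on low counts, and the interval of Slc5a1, -2.66 to 0.23, included no difference. The kidney list summed to 3.00 TPM in replicate 2, against 7.41 TPM in replicate 1. Its median log2 ratio was -1.45, with 4 of 6 genes over 2-fold lower and none higher. The part of intestine or kidney RNA in the Apoa4 difference was not tested.

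**Figure D4:**
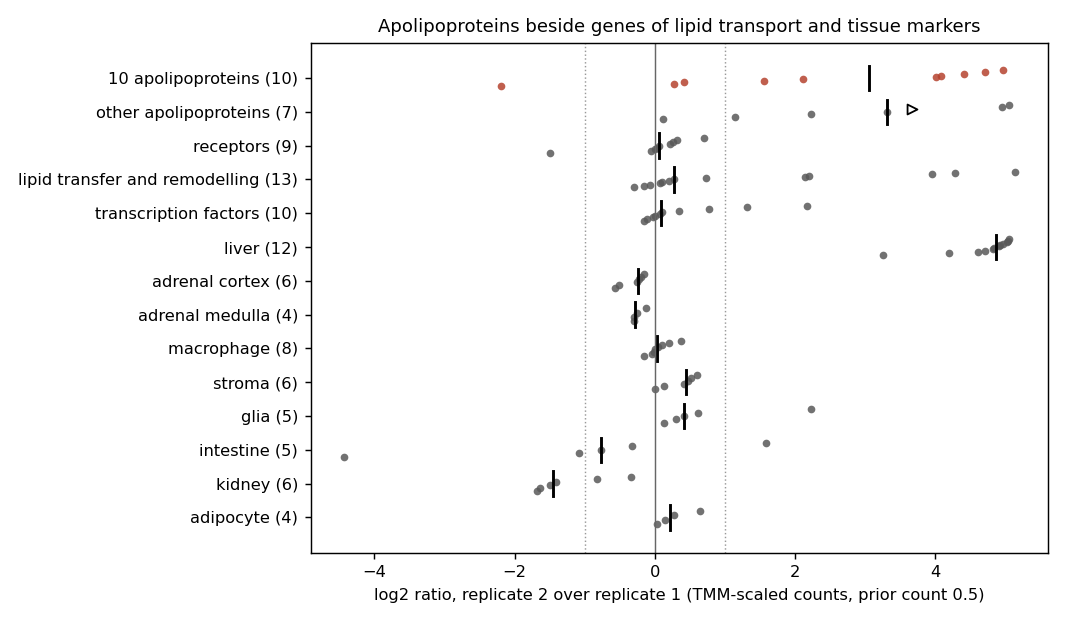
Log2 ratio of replicate 2 over replicate 1 for each gene of the member group and of the gene lists, 1 point per gene, lists running down the page. The 12 liver genes lie between 3.26 and 5.05, the cortex genes between -0.56 and -0.15, and the open triangle places Saa4, which had 0 counts in replicate 1, at its ratio against 3 counts there.

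By levels in the 2 libraries, the protein-coding genes most like Apoe were Igf2, Acta1 and Col1a1, at distances of 0.584, 0.864 and 0.871 in log2(TPM + 1). Igf2, a fetal growth factor, had 474 TPM in replicate 2, against 238 TPM in replicate 1. The genes most like Apoa1 were Afp, Ahsg and Apoa2, at 0.384, 1.14 and 1.23. Afp, the fetal albumin-like protein of liver, had 590 TPM in replicate 2, against 23.6 TPM in replicate 1.

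The 2 kinds of table assigned the same genes to different transcripts. Of 11 annotated Apoe transcripts, Apoe-209 took 83.1% of the gene's TPM in replicate 2 and 79.5% in replicate 1 in the alignment-based tables. The alignment-free tables gave it 0 and assigned 95.7% in replicate 2 and 94.7% in replicate 1 to Apoe-205, whose first base lies 601 bases further into the gene. Apoc1 was given to Apoc1-201 by alignment (97.1% in replicate 2 and 96.2% in replicate 1) and mostly to Apoc1-202 without it (67.6% and 62.4%). The same transcript led in all 4 tables for 5 of the 10 genes, Apoa1-201 among them. Among the 8 genes with more than 1 transcript, 3 had the same leader throughout. The gene-level log2 ratio of Apoe was 1.56 in the gene tables and 1.54 in the alignment-free tables.

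**Figure D5:**
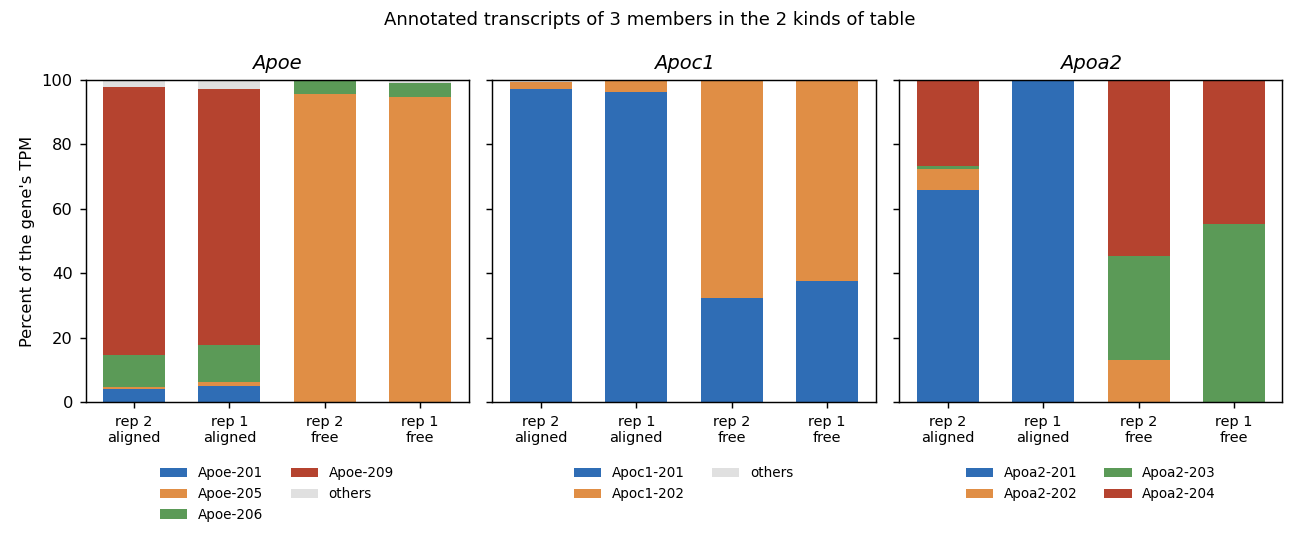
Percent of gene TPM assigned to each annotated transcript of 3 members, by kind of table and replicate. For Apoe the bars change from Apoe-209 (83.1% in replicate 2) in the alignment-based tables to Apoe-205 (95.7% in replicate 2) in the alignment-free tables.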

How the data were processed

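The 2 adrenal gland libraries are replicates of 1 group. For each library the authors deposited a gene table and a transcript table of expected counts, made from a transcriptome alignment, and a second, alignment-free transcript table, all against mm10 and GENCODE M21, per the notes deposited with the files. The TPM values were deposited by the authors and divide counts by effective length and then by their sum in the library. The quantifying programs and any use of the strand were not given in the sources used here.

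Members were found by symbol in the alignment-free tables and joined to the gene tables by gene identifier. Alignment-free values were summed per gene. Expected counts were rounded to whole numbers. TMM factors from edgeR 4.0.16 under R 4.3.3 gave the library sizes, from the 18160 genes that filterByExpr kept, of 55536 annotated genes. Left out were spike-ins, at 1.06% of either library, and 26248 rows named only by a number, which held 2 counts in replicate 2 and 3 in replicate 1. The log2 ratio is replicate 2 over replicate 1 with a prior count of 0.5. Its interval is an exact (Clopper-Pearson) 95% interval of the share of both counts and covers counting error only. The calculation was tested on simulated data. A gene is called different when it passes 2-fold. No p-value was computed, since the libraries are replicates of 1 group. Alternatives were DESeq2 1.42.0 size factors, total counts, spike-in counts, the alignment-free tables, other prior counts and filters. Members, gene lists, motifs and tests were chosen with earlier results of these data known. All members are named. Of the receptor, lipid transfer and transcription factor lists the 3 highest genes are given, with all other apolipoproteins and all receptor and lipid transfer genes past 2-fold. Genes past 2-fold of the remaining lists were named after their values were seen. Some list genes are counted but not reported here by name. Like genes are the 3 protein-coding genes nearest to Apoe and to Apoa1 in log2(TPM + 1) over the 2 libraries.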

Additional observations from a re-analysis of the deposited data

How the results depend on the processing

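All 60 recomputed log2 ratios of members (10 members, 6 alternatives each) kept their direction and lay within the counting interval of the reported value. DESeq2 size factors, total counts, spike-in counts and TMM without a filter on low counts moved none of them by more than 0.03. The number of members over 2-fold higher in replicate 2 was 7 under each of the 6 alternatives, and the median log2 ratio of the liver-type members ranged from 4.01 with a prior count of 2 to 4.19 in the alignment-free tables. The Apoe level depended on the scale: it was 1309.7 TPM when TPM was rescaled over nuclear protein-coding genes, 794 TPM in the alignment-free tables, and 226 to 710 TPM when either replicate was left out. The share of all genes over 2-fold higher in replicate 2 was 7.89% without the filter on low counts, where 55536 genes were counted in place of 18160. Ratios could not be formed with a replicate left out. No paired analysis was possible because the series has only 1 group. Depth limits Apod and Apoc3, whose intervals are the widest among the members.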

Other observations

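Of the 18160 genes kept by the filter on low counts, 10 had a lower log2 ratio of replicate 2 over replicate 1 than Apoa4. They were named after their values were seen. Pax2 and Lhx1, transcription factors known from the developing kidney and urogenital tract, had 0.16 and 0.22 TPM in replicate 2 and 1.17 and 1.29 TPM in replicate 1. Emx2, also a urogenital transcription factor, had 0.34 TPM in replicate 2, against 1.11 TPM in replicate 1. Cdh16, a cadherin first described in kidney, had 0.76 TPM in replicate 2, against 3.84 TPM in replicate 1, a log2 ratio of -2.89. Tmem52b had the lowest ratio, -3.07, with 12 counts in replicate 2 and 109 in replicate 1. Hoxa10, the epithelial adhesion gene Epcam, Dcdc2a, Gm20503 and Gm4070 made up the rest, with log2 ratios of -2.42, -2.24, -2.37, -2.58 and -2.33. Apoa4, at 69 counts in replicate 2 and 330 in replicate 1, was more abundant in replicate 1 than any of these 10 genes by count.

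Gm44805, annotated as protein-coding on the same strand across Apoc2 and into Apoc4, had 3.21 TPM in replicate 2, against 0.61 TPM in replicate 1. It can exchange reads with both genes, and its log2 ratio of 1.83 lay between that of Apoc4 (1.14) and that of Apoc2 (4.41).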
